A study of Mus musculus with 12 samples.

Results

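Nrf2, encoded by Nfe2l2, and its antioxidant program were followed through 10 genes of the 37991 in the count files of mouse embryonic fibroblasts (MEFs). They were taken by name, through the gene symbols of their Ensembl identifiers, and comprise Nfe2l2, its inhibitor Keap1, and the target genes Slc7a11, Gclc, Gclm, Gsr, Txnrd1, Srxn1, Nqo1 and Hmox1. The rule uses names and no measured value, but the genes were chosen with earlier results of these data known. All 10 were found, and all 10 passed the filter on low counts that left 15327 genes for testing. The counts of these 10 genes ran from 804 to 41349 in single samples, so that counting error was between 0.492% and 3.53% of a value.

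Nrf2 is a transcription factor that is made all the time and removed all the time. Keap1 holds it for ubiquitination by the Cul3 ligase, and oxidants or electrophiles that modify cysteines of Keap1 let newly made Nrf2 escape to the nucleus, where it pairs with a small Maf protein on antioxidant response elements. Its targets import cystine, make and recycle glutathione, keep thioredoxin and peroxiredoxins reduced, and clear quinones and heme. Nrf2 is controlled mainly through its protein, which was not measured here, and in fibroblasts this program sets much of the capacity to survive oxidants.

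The cells were primary MEFs of the FVB strain, taken from embryos at day 13.5 and used at passage 3. They were wild-type (WT) or carried on both alleles the knock-in E2f1 3KR, in which 3 lysine codons of the transcription factor E2F1 are replaced by arginine codons, so that these sites cannot be acetylated. Cells of each genotype were left untreated or received neocarzinostatin (NCS), a drug that cuts DNA as ionizing radiation does, at 250 ng/ml for 3 h, and each of the 4 groups had 3 samples. All groups shared a medium with serum and β-mercaptoethanol, a reducing agent, and an oxygen level of 5%. The levels described are therefore those of cells kept under reducing, low-oxygen conditions. The knock-in is present in every cell and throughout development and derives from 1 founder mouse. The labels give replicate numbers and do not say that replicates came from separate embryos, so the p-values measure the spread between these samples, which may be technical.

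The libraries held 33203757 to 45279321 counted reads, and the common biological coefficient of variation was 3.95%. NCS raised the p53 targets Cdkn1a, by 1.18 in WT and 1.34 in 3KR MEFs on the log2 scale, and Mdm2, by 0.84 and 0.96. The largest false discovery rate, FDR, was 4.62e-14 in edgeR's quasi-likelihood test. Their log2 fold changes in 3KR against WT MEFs were -0.83 and -0.79 untreated and -0.67 and -0.66 after NCS (largest edgeR FDR 4.11e-13). The response of Cdkn1a to NCS differed between the genotypes by 0.16 (3KR minus WT, edgeR FDR = 0.0189). That of Mdm2 was not shown to differ (0.13, edgeR FDR = 0.216). E2f1 itself did not pass the test between genotypes (edgeR FDR = 0.710 untreated and 0.863 after NCS), and codon changes of this kind cannot be checked from gene counts. Xist, made from the inactive X of female cells, had a log2 fold change of 9.39 in untreated 3KR against WT MEFs and was high in all 6 samples of 3KR MEFs, and the log2 fold change of the Y-linked Ddx3y was -8.94. Genotype and the sex of the cells therefore cannot be told apart. Fibroblast markers were abundant (10 of 10 genes, 57901 to 64207 CPM, that is counts scaled to the library total, in sum). Replicate 3 of WT stood apart from replicates 1 and 2 in both treatments, since pairs that include it had chi-square values of 7.57 to 9.43 per gene and no other pair within a group exceeded 2.32. Its mean deviation over the 10 genes was 0.00669 untreated and -0.0148 after NCS on the log2 scale. This is a signed mean, in which opposite deviations cancel. Untreated WT replicate 3 was lowest for Nqo1 (2739 against 3142 and 3044 normalized counts) and highest for Hmox1 (9691 against 8992 and 9147). Without WT replicate 3 in both treatments 5 of the 10 genes passed the test of a difference in response, against 2 with it.

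NCS raised most of the program in both genotypes. In WT MEFs 8 of the 10 genes rose, Hmox1 the most, by 72.7%, and Keap1 and Slc7a11 did not pass the test, while in 3KR MEFs 8 rose, Txnrd1 the most, by 69.4%, Keap1 fell and Slc7a11 did not pass (edgeR, FDR threshold of 0.05). Of all 15327 tested genes 26.7% passed in WT MEFs, 14.3% upward and 12.4% downward. In 3KR MEFs 30.8% passed, 15.8% upward and 15.0% downward. The median log2 fold change of the 10 genes was 0.38 in WT and 0.38 in 3KR MEFs, against 0.01 and -0.000785 over all genes. The untreated and NCS samples did not overlap for 10 of 10 genes in either genotype, which held for 35.1% of all genes in WT and 47.6% in 3KR MEFs.

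**Figure D1:**
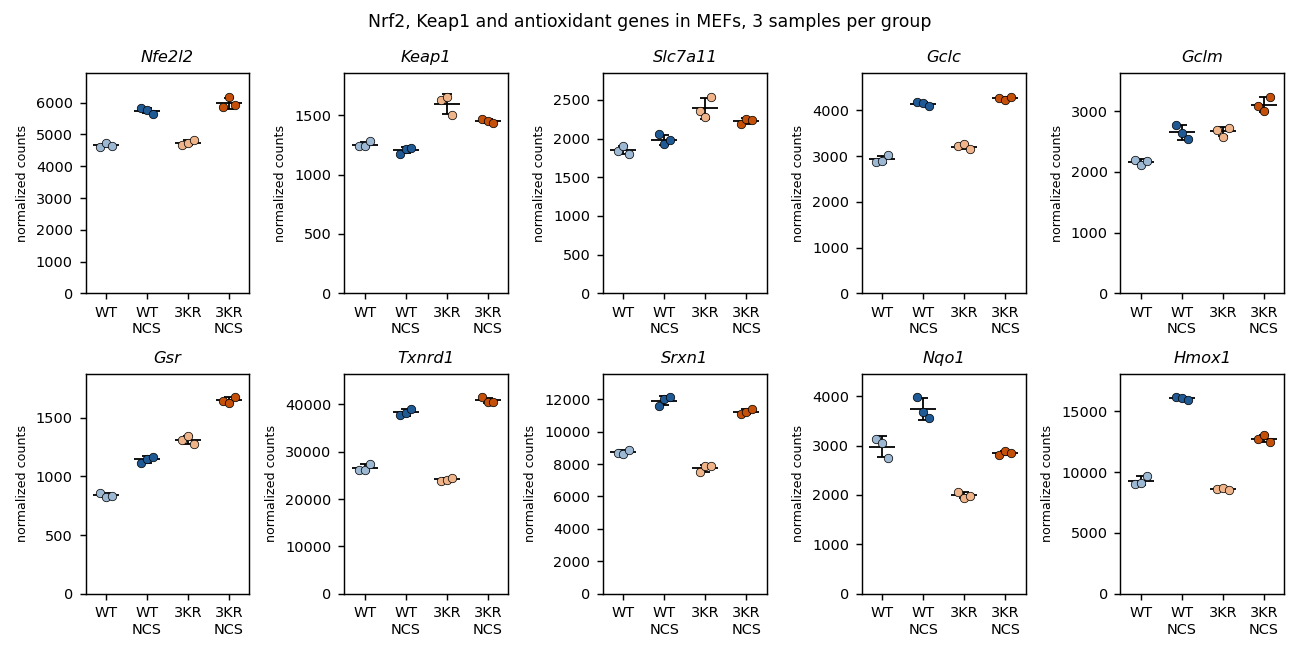
Normalized counts (y axis, from 0) of the 10 genes in the 12 samples, 1 panel per gene, with points for single samples and bars for the mean ± SD of 3 samples. Pale points are untreated, dark points NCS, blue WT and orange 3KR; Hmox1 rises from 9277 to 16066 on average in WT MEFs and from 8605 to 12745 in 3KR MEFs.

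**Figure D2:**
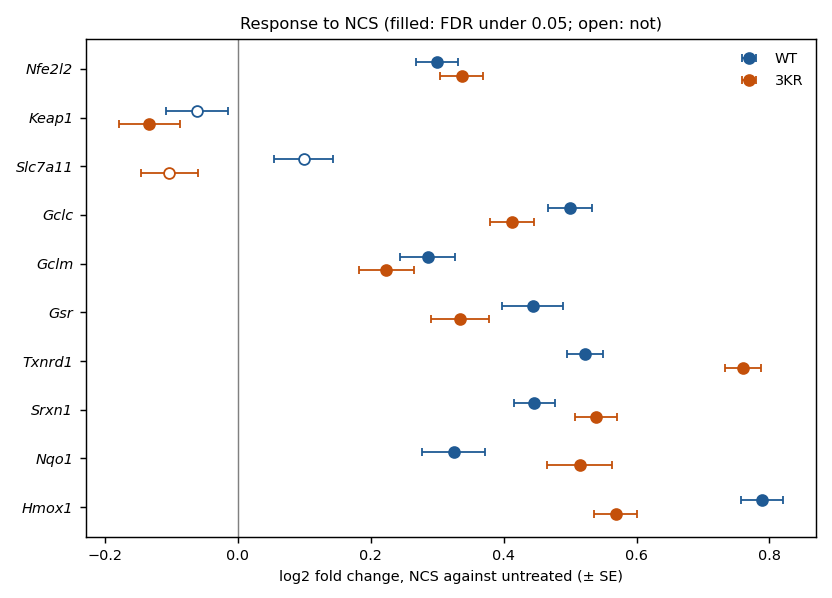
Log2 fold change of NCS against untreated (x axis, ± standard error) for each gene (y axis) in WT (blue) and 3KR MEFs (orange), filled where the edgeR FDR was under 0.05. Txnrd1 at 0.52 and 0.76 and Hmox1 at 0.79 and 0.57 are the 2 genes whose responses differed between the genotypes.

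The promoters of these genes are shown where they hold the letters of an antioxidant response element. Whether such an element has a part in the rise with NCS was not tested. Nrf2 with a small Maf binds a sequence whose core reads TGACNNNGC, and windows from 250 bases before to 50 bases after the RefSeq transcription starts (build GRCm38.p6) were searched for it on both strands. The table of promoters held 9 windows for 7 of the 10 genes, 3 of them for Txnrd1, and left out Hmox1, Gclc and Gsr. Keap1 and Nqo1 held no match in theirs, and sequence outside the windows was not searched. The core was present in 12.4% of all 32851 promoter windows and in 4 of these 9, 1 each for 4 genes, while the other 2 windows of Txnrd1 lacked it. A second spelling, TGAGNNNGC, was added after the first search had been seen and occurred in 17.6% of all windows and in 2 of these 9. Either spelling was found in 27.8% of all windows and in 5 of these 9. A match is a run of letters and not a measured binding site. The matches are shown with 8 bases on each side, written along the gene's strand, with the core in capitals, which reads as its reverse complement where the match is on the opposite strand.
Nfe2l2, chr2:75704887-75704911, minus strand, 240 bases before the start: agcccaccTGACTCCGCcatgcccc
Gclm, chr3:122245415-122245439, plus strand, 134 bases before the start: tcccgggcGCACCGTCAactctcac
Txnrd1, chr10:82859106-82859130, plus strand, 92 bases before the start: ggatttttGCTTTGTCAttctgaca
Srxn1, chr2:152105544-152105568, plus strand, 29 bases after the start: agtgggcaGCTAGGTCAgagtgaga
Srxn1, second spelling, chr2:152105471-152105495, plus strand, 45 bases before the start: attcacccTGAGTCAGCggccgggc
Srxn1, second spelling, chr2:152105358-152105382, plus strand, 158 bases before the start: tactgagaGCCGACTCAtcctctct
Slc7a11, second spelling, chr3:50443694-50443718, minus strand, 97 bases before the start: atgttggcGCTTTCTCAagctggag
The Srxn1 window also holds the AP-1 motif TGANTCA 102 and 45 bases before the start, and the latter overlaps the element shown there. This motif was in 7.81% of all windows and in 1 of these 9.

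Nfe2l2, the Nrf2 gene itself, was nearly equal in both genotypes and rose after NCS in both. Normalized counts were 4619, 4717 and 4652 in the 3 untreated WT samples and 4668, 4736 and 4834 in the 3 untreated 3KR samples. After NCS they were 5822, 5779 and 5658 in WT and 5856, 6184 and 5925 in 3KR MEFs. Every NCS sample was above every untreated sample, whereas the genotypes overlapped without treatment and came apart by a narrow margin after it. The rise was 23.1% in WT (log2 fold change 0.30, standard error, SE, 0.03, edgeR FDR = 1.67e-07) and 26.3% in 3KR MEFs (0.34, SE 0.03, edgeR FDR = 1.90e-08). Between genotypes the gene passed the test neither without treatment (log2 fold change 0.02, edgeR FDR = 0.655) nor after NCS (0.06, edgeR FDR = 0.146).

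Keap1, the adaptor that hands Nrf2 to the Cul3 ligase, was higher in 3KR MEFs and moved little with NCS. Untreated samples held 1240.2, 1238 and 1280.2 normalized counts in WT and 1631, 1655 and 1499 in 3KR MEFs. NCS samples held 1175, 1211 and 1223 in WT and 1464, 1454 and 1436 in 3KR MEFs. All 6 samples of 3KR MEFs lay above all 6 of WT, and within each genotype the NCS samples lay just below the untreated ones. The excess in 3KR MEFs was 26.7% untreated (log2 fold change 0.34, SE 0.05, edgeR FDR = 1.34e-06) and 20.6% after NCS (0.27, SE 0.05, edgeR FDR = 4.28e-05). NCS gave a log2 fold change of -0.06 in WT MEFs, which did not pass the test (edgeR FDR = 0.372), and of -0.13 in 3KR MEFs, which did (edgeR FDR = 0.0296). The call in 3KR MEFs was lost without untreated 3KR replicate 1 or 2 or NCS-treated 3KR replicate 1, 2 or 3, each left out alone (edgeR FDR = 0.0605 to 0.141). In GENCODE M21 Keap1 shares 510 exon bases with Gm16754 on the opposite strand. Gm16754 is not among the genes of the count files, so its level is not known. Whether the counting used strand is not given in the sources used here.

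Slc7a11 encodes the cystine transporter subunit xCT, which brings in the cystine from which glutathione is made, and it was the gene with the least response to NCS beside Keap1. In untreated cells it had 1842, 1901 and 1799.75 normalized counts in WT and 2353, 2281 and 2539 in 3KR MEFs. The NCS samples had 2052, 1924 and 1977 in WT and 2186, 2251 and 2237 in 3KR MEFs. The samples of 3KR MEFs were all above those of WT, and NCS samples sat just above the untreated range in WT and just below it in 3KR MEFs. The level in 3KR MEFs was higher by 29.0% untreated (log2 fold change 0.37, SE 0.04, edgeR FDR = 2.06e-07) and by 12.1% after NCS (0.17, SE 0.04, edgeR FDR = 0.00334). NCS gave log2 fold changes of 0.10 in WT (edgeR FDR = 0.103) and -0.10 in 3KR MEFs (edgeR FDR = 0.0749), and neither passed. When WT samples were blocked by replicate number, the log2 fold change of 0.10 passed (edgeR FDR = 0.0425).

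Gclc, the catalytic subunit of glutamate-cysteine ligase and the rate-limiting step of glutathione synthesis, rose after NCS in both genotypes to levels that were close to each other. Normalized counts without treatment were 2875, 2886 and 3018 in WT and 3223, 3259 and 3145 in 3KR MEFs. With NCS they were 4174, 4164 and 4103 in WT and 4271, 4234 and 4295 in 3KR MEFs. The treatments were far apart in each genotype, and 3KR MEFs were above WT in both, by a narrow margin after NCS. NCS raised Gclc by 41.4% in WT (log2 fold change 0.50, SE 0.03, edgeR FDR = 5.44e-11) and by 33.2% in 3KR MEFs (0.41, SE 0.03, edgeR FDR = 1.12e-09). The genotype difference passed untreated, at 9.24% (log2 fold change 0.13, edgeR FDR = 0.00308), and not after NCS (0.04, edgeR FDR = 0.322).

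Gclm, the modifier subunit that raises the activity of Gclc, was higher in 3KR MEFs and rose with NCS in both genotypes. Untreated levels were 2203, 2120.3 and 2186 normalized counts in WT and 2686, 2584 and 2731 in 3KR MEFs. NCS levels were 2778, 2643 and 2536 in WT and 3092, 2999.7 and 3238 in 3KR MEFs. None of these groups overlapped with its treatment or genotype partner, and untreated 3KR MEFs lay within the range of NCS-treated WT MEFs. NCS added 21.9% in WT (log2 fold change 0.29, SE 0.04, edgeR FDR = 1.57e-05) and 16.8% in 3KR MEFs (0.22, SE 0.04, edgeR FDR = 0.000201). The excess in 3KR MEFs was 22.4% untreated (0.29 on the log2 scale, SE 0.04, edgeR FDR = 3.66e-06) and 17.3% after NCS (0.23, SE 0.04, edgeR FDR = 7.02e-05). Per length, Gclc had more counts than Gclm in all groups, with a ratio of 2.25 ± 0.0657 (SD, n = 3) in untreated WT, 2.61 ± 0.0971 in NCS-treated WT, 2.01 ± 0.0918 in untreated 3KR and 2.29 ± 0.0722 in NCS-treated 3KR MEFs. In GENCODE M21 Gclm shares 296 exon bases with Gm17494 on the opposite strand, which had at most 20 counts in a sample, and 244 with Gm6061 on the same strand, which had 0.

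Gsr encodes glutathione reductase, which regenerates reduced glutathione with NADPH, and had the largest excess in 3KR MEFs among the 10 genes. Its normalized counts were 857, 826 and 832 in untreated WT and 1312, 1343 and 1276 in untreated 3KR MEFs. Treated samples had 1115, 1149 and 1168 in WT and 1646, 1626 and 1675 in 3KR MEFs. The 4 groups followed each other without overlap, with untreated 3KR MEFs above NCS-treated WT MEFs. Gsr was higher in 3KR MEFs by 55.5% untreated (log2 fold change 0.64, SE 0.05, edgeR FDR = 4.66e-11) and by 44.1% after NCS (0.53, SE 0.04, edgeR FDR = 7.40e-10). It rose with NCS by 36.0% in WT (0.44, SE 0.05, edgeR FDR = 1.23e-07) and 26.1% in 3KR MEFs (0.33, SE 0.04, edgeR FDR = 2.40e-06).

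Txnrd1, the cytosolic thioredoxin reductase, responded to NCS more strongly in 3KR MEFs. Before treatment the samples had 26215, 26099 and 27509.5 normalized counts in WT and 23907, 24112 and 24429.9 in 3KR MEFs. After NCS the samples had 37743, 38121.5 and 39127 in WT and 41537, 40509.6 and 40526 in 3KR MEFs. The order of the genotypes turned over, with 3KR MEFs below WT untreated and above WT after NCS, without overlap in either case. Untreated 3KR MEFs were lower (log2 fold change -0.15, SE 0.03, edgeR FDR = 8.76e-05) and NCS-treated 3KR MEFs higher (0.09, SE 0.03, edgeR FDR = 0.00646) than WT. The rise with NCS was 43.7% in WT (0.52, SE 0.03, edgeR FDR = 6.07e-13) and 69.4% in 3KR MEFs (0.76, SE 0.03, edgeR FDR = 6.56e-16). The difference between these responses was 0.24 on the log2 scale (SE 0.04, edgeR FDR = 0.000407) and passed under each of 18 alternatives, at 0.21 to 0.26.

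Srxn1, sulfiredoxin, repairs peroxiredoxins that have been overoxidized. Samples without treatment had 8689, 8614 and 8867 normalized counts in WT and 7488, 7888 and 7865 in 3KR MEFs. Samples with NCS had 11595, 12027 and 12131 in WT and 11088, 11217 and 11421 in 3KR MEFs. Untreated 3KR MEFs were lowest, and WT stayed above 3KR MEFs in both treatments. NCS raised Srxn1 by 36.2% in WT (log2 fold change 0.45, SE 0.03, edgeR FDR = 1.33e-10) and by 45.3% in 3KR MEFs (0.54, SE 0.03, edgeR FDR = 4.96e-12). The genotype difference was -11.5% untreated (-0.18, SE 0.03, edgeR FDR = 5.68e-05) and -5.67% after NCS (-0.08, SE 0.03, edgeR FDR = 0.0298). The latter did not pass without a filter on low counts (edgeR FDR = 0.0714) or without NCS-treated WT replicate 2 or 3 or NCS-treated 3KR replicate 1 or 2 (edgeR FDR = 0.0799 to 0.109).

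Nqo1, the quinone reductase that is the usual marker gene of Nrf2 activity, was the gene furthest below WT in 3KR MEFs. It had 3142, 3044 and 2739 normalized counts in untreated WT and 2056, 1944 and 1988 in untreated 3KR MEFs. It had 3982, 3688 and 3549 after NCS in WT and 2804, 2898 and 2840.15 in 3KR MEFs. WT replicate 3 was the lowest of its group in both treatments, and WT and 3KR samples did not overlap within a treatment. The difference of 3KR from WT MEFs was -33.3% untreated (log2 fold change -0.58, SE 0.05, edgeR FDR = 6.45e-10) and -23.9% after NCS (-0.39, SE 0.05, edgeR FDR = 2.91e-07). NCS raised Nqo1 by 25.2% in WT (0.32, SE 0.05, edgeR FDR = 1.28e-05) and by 42.8% in 3KR MEFs (0.51, SE 0.05, edgeR FDR = 2.16e-08), which left NCS-treated 3KR MEFs within the range of untreated WT MEFs.

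Hmox1, heme oxygenase 1, breaks heme down to biliverdin, iron and carbon monoxide, and is repressed by Bach1 besides being induced by Nrf2. Normalized counts in untreated cells were 8992, 9147 and 9691 for WT and 8598, 8716 and 8501 for 3KR MEFs. In NCS-treated cells they were 16172, 16124 and 15902 for WT and 12716, 13055 and 12464 for 3KR MEFs. The groups did not overlap, and the genotypes were much further apart after NCS than before it. NCS raised Hmox1 by 72.7% in WT (log2 fold change 0.79, SE 0.03, edgeR FDR = 1.24e-14) and by 48.3% in 3KR MEFs (0.57, SE 0.03, edgeR FDR = 3.23e-12). The log2 fold change of 3KR against WT MEFs was -0.11 untreated (SE 0.03, edgeR FDR = 0.00546) and -0.33 after NCS (SE 0.03, edgeR FDR = 6.40e-09). The response in 3KR MEFs was weaker by -0.22 on the log2 scale (SE 0.05, edgeR FDR = 0.00563) and this passed under each of 18 alternatives, at -0.26 to -0.20.

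The response to NCS differed between the genotypes for Txnrd1 and Hmox1 and was not shown to differ for the other 8 genes. Of the 10 genes 2 passed the test of the difference, Txnrd1 with the stronger and Hmox1 with the weaker response in 3KR MEFs, against 3.73% of all genes (1.86% higher, 1.87% lower). Slc7a11 (-0.20, SE 0.06, edgeR FDR = 0.0723) and Nqo1 (0.19, SE 0.07, edgeR FDR = 0.137) came next. For the other 6 the log2 difference lay between -0.11 in Gsr and 0.09 in Srxn1, with an edgeR FDR of 0.298 to 0.749. With the replicate number within genotype as a block, 4 of the 10 passed, adding Nqo1 (0.19, edgeR FDR = 0.00564) and Slc7a11 (-0.20, edgeR FDR = 0.0124). Without WT replicate 3 in both treatments 5 passed, since Srxn1 was then also called (0.09, edgeR FDR = 0.0470). The median difference over the 10 genes was -0.07, against 0.00392 over all genes.

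**Figure D3:**
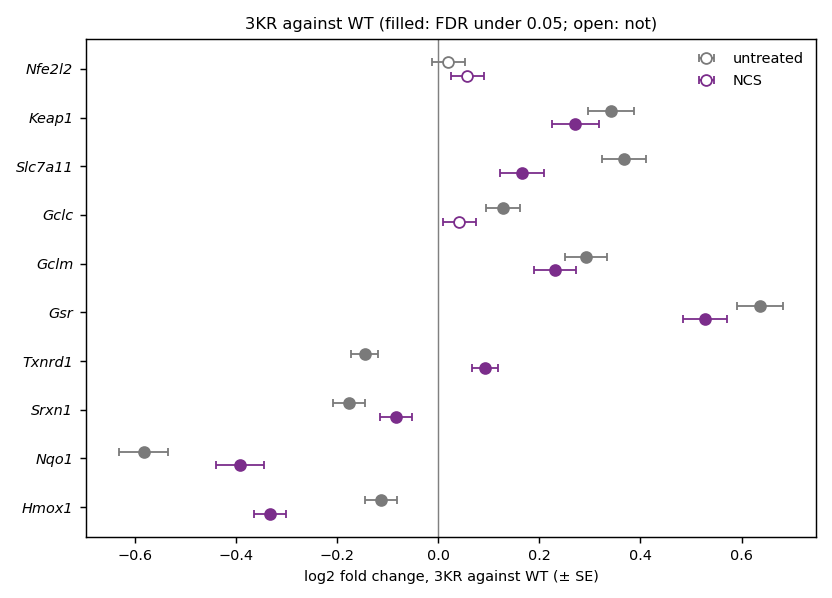
Log2 fold change of 3KR against WT MEFs (x axis, ± standard error) for each gene (y axis), untreated (grey) and after NCS (purple), filled where the edgeR FDR was under 0.05. Gsr, Slc7a11, Keap1 and Gclm are above 0 and Nqo1, Srxn1 and Hmox1 below 0 in both treatments, while Txnrd1 changes side from -0.15 to 0.09.

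Between genotypes the 10 genes did not move one way. Untreated, 9 of 10 differed, 5 higher in 3KR MEFs (Gsr, Slc7a11, Keap1, Gclm and Gclc) and 4 lower (Nqo1, Srxn1, Txnrd1 and Hmox1), beside 45.7% of all genes (22.1% higher, 23.6% lower). After NCS 8 of 10 differed, 5 higher with Txnrd1 now in place of Gclc and 3 lower, beside 46.5% of all genes (22.9% higher, 23.6% lower). The genotypes did not overlap for 9 genes untreated and for 10 after NCS, as was the case for 53.5% and 54.3% of all genes. The median log2 fold change of the 10 genes was 0.07 in both treatments, against -0.000356 and 0.00367 over all genes, and the median of its absolute value was 0.23 untreated and 0.20 after NCS, against 0.18 and 0.19. The comparisons of genotypes and of treatments use the same 12 samples and are not independent of each other.

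Markers of fibroblasts and of other cell types differed between the same genotypes. Of 10 fibroblast genes 8 were higher and 2 lower in untreated 3KR MEFs, and 7 higher and 2 lower after NCS, with untreated log2 fold changes from -0.35 for Fn1 to 1.67 for Pdgfra. The summed level of 19 macrophage genes was 140.4 to 168 CPM in the 6 WT samples, 289 to 292 CPM in untreated and 258 to 263 CPM in NCS-treated 3KR MEFs, with 17 of 18 tested genes higher untreated and Cd163 at 3 counts or fewer in every sample. The summed level of 10 Schwann cell and neural crest genes was 237 to 254 CPM in WT and 49.3 to 58.3 CPM in 3KR MEFs. Of these 10 genes 7 were lower in each treatment, and 1 was higher after NCS. The part of these differences in those of the 10 genes was not tested, and in bulk samples fewer cells of a type and less RNA per cell cannot be told apart. Endothelial (6 genes, 4.82 to 6.59 CPM) and epithelial markers (6 genes, 2.20 to 3.29 CPM) were low in all samples, and 5 of 7 erythroid markers were at 3 counts or fewer throughout. Of 6 skeletal muscle genes, which summed to 116 to 124 CPM in WT and 40.1 to 43.6 CPM in 3KR MEFs, Des had 1337 to 5405 counts and the others at most 13, with Ckm at 0.

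Compared per length, in CPM per kilobase of exon, Hmox1, Txnrd1 and Srxn1 led in each group and Slc7a11 was last. The length was the union of all annotated exons, 13922 bases for Slc7a11 and 1751 for Hmox1, and the order depends on it. In normalized counts, not divided by length, Slc7a11 was above Keap1 and Gsr in each group (1848 against 1253 and 838 in untreated WT MEFs). Untreated WT MEFs had 139 ± 5.59 (SD, n = 3) for Hmox1, 98.6 ± 2.98 for Txnrd1, 81.2 ± 1.28 for Srxn1, 50.3 ± 3.53 for Nqo1 and 32.2 ± 0.322 for Nfe2l2. Below these came Gclc at 20.4 ± 0.568, Gclm at 9.05 ± 0.189, Gsr at 7.99 ± 0.163, Keap1 at 7.01 ± 0.139 and Slc7a11 at 3.48 ± 0.0928, and no neighbours in this order overlapped. In NCS-treated WT MEFs only Gclm at 11.0 and Gsr at 10.9 overlapped. Untreated 3KR MEFs had Gsr at 12.4 above Gclm at 11.1 CPM per kilobase, and their Nqo1 at 33.6 overlapped Nfe2l2 at 32.7. NCS-treated 3KR MEFs kept the order of untreated 3KR MEFs from Hmox1 at 191 to Slc7a11 at 4.18, with no overlap between neighbours.

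The wider pathway was read from 9 lists that held 127 genes apart from the 10, of which 121 were tested. NCS raised 42 and lowered 14 of them in WT and raised 47 and lowered 12 in 3KR MEFs, with median log2 fold changes of 0.09 and 0.08. Of all tested genes NCS raised 14.3% and lowered 12.4% in WT, and raised 15.8% and lowered 15.0% in 3KR MEFs. Genotypes differed without a common direction, with 36 higher and 37 lower in untreated 3KR MEFs (median -0.00241) and 38 higher and 33 lower after NCS (median 0.04), where the shares of all genes were 22.1% and 23.6% untreated and 22.9% and 23.6% after NCS. The difference of responses passed for 8 with a higher and 3 with a lower response in 3KR MEFs (median 0.04), against 1.86% and 1.87% of all genes.

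Of 11 tested regulators and partners of Nrf2, 5 rose and 1 fell with NCS in each genotype. Lower in 3KR MEFs were 6 untreated and 5 after NCS, beside 23.6% of all genes in each treatment. Over all tested genes NCS raised 14.3% and lowered 12.4% in WT, and raised 15.8% and lowered 15.0% in 3KR MEFs. In WT MEFs NCS raised Bach2, a repressor related to Bach1, by 0.93 on the log2 scale (edgeR FDR = 1.34e-08), Sqstm1, the p62 adaptor that sequesters Keap1, by 0.29 (edgeR FDR = 1.26e-08) and Maff, a small Maf partner, by 0.49 (edgeR FDR = 2.10e-08). In 3KR MEFs it raised Bach2 by 0.87 (edgeR FDR = 2.25e-08), Sqstm1 by 0.18 (edgeR FDR = 1.12e-05) and Maff by 0.70 (edgeR FDR = 1.42e-10). Maff had a log2 fold change of -0.74 between genotypes without treatment (edgeR FDR = 8.78e-12) and -0.53 after NCS (edgeR FDR = 1.40e-09). The median of this list was 0.09 with NCS in WT, 0.04 with NCS in 3KR MEFs and -0.08 between untreated genotypes.

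Glutathione genes beyond the 10 rose in WT MEFs for 10 of 24 and in 3KR MEFs for 6 of 24, with 1 lower in each. Among all genes 14.3% rose in WT and 15.8% in 3KR MEFs, and 12.4% and 15.0% fell. Glutathione synthetase, Gss, rose by 0.39 in WT (edgeR FDR = 7.97e-08) and 0.50 in 3KR MEFs (edgeR FDR = 2.30e-09), and had a log2 fold change of -0.48 between untreated genotypes (edgeR FDR = 8.99e-10). The gene that fell, Chac1, which degrades glutathione, changed by -0.76 in WT (edgeR FDR = 2.28e-11) and -0.36 in 3KR MEFs (edgeR FDR = 1.47e-06). Between genotypes 8 were higher and 6 lower untreated, with the transferase Gsta4 at 1.52 (edgeR FDR = 6.38e-17) and the secreted peroxidase Gpx3 at -0.63 (edgeR FDR = 2.86e-11). The list held 8 higher and 7 lower genes after NCS. The shares of all genes were 22.1% higher and 23.6% lower untreated, and 22.9% and 23.6% after NCS.

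Of 16 thioredoxin and peroxide genes, NCS raised 2 in WT, and raised 5 and lowered 1 in 3KR MEFs. The shares of all genes raised and lowered were 14.3% and 12.4% in WT and 15.8% and 15.0% in 3KR MEFs. Prdx6, a peroxiredoxin, rose in both, by 0.12 in WT (edgeR FDR = 0.00775) and 0.27 in 3KR MEFs (edgeR FDR = 7.16e-07). Thioredoxin itself, Txn1, rose by 0.23 in 3KR MEFs (edgeR FDR = 0.000970). Genotypes differed in both directions, with 4 higher and 6 lower untreated and 4 of each after NCS. Extracellular superoxide dismutase, Sod3, was higher in untreated 3KR MEFs by 1.31 (edgeR FDR = 5.69e-15). Among 10 genes that supply NADPH, 6 rose in WT and 7 in 3KR MEFs, with Pgd of the pentose phosphate pathway at 0.22 (edgeR FDR = 2.64e-06) and 0.29 (edgeR FDR = 3.40e-08). Between genotypes 2 of these were higher and 1 lower untreated, and 3 and 2 after NCS. Beside both lists, 22.1% of all genes were higher and 23.6% lower untreated, and 22.9% and 23.6% after NCS.

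Of 10 heme and iron genes 5 rose with NCS in each genotype, and 1 fell in 3KR MEFs. Across all genes 14.3% rose and 12.4% fell in WT, and 15.8% rose and 15.0% fell in 3KR MEFs. The transferrin receptor Tfrc rose in 3KR MEFs by 0.57 (edgeR FDR = 7.06e-11) from a lower untreated level (-0.76, edgeR FDR = 6.34e-14), and its response differed between genotypes by 0.52 (edgeR FDR = 2.00e-06). Slc40a1, the iron exporter ferroportin, fell in 3KR MEFs (-0.38, edgeR FDR = 0.000668) and its response differed by -0.63 (edgeR FDR = 0.00154). The list had 3 higher and 3 lower genes between untreated genotypes, and 1 and 3 after NCS. Detoxification genes rose for 9 of 18 in WT with 1 lower, and for 8 of 18 in 3KR MEFs, among them the epoxide hydrolase Ephx1 at 0.46 (edgeR FDR = 3.66e-09) and 0.60 (edgeR FDR = 4.05e-11). Genotypes differed for 4 higher and 3 lower of these untreated, and for 3 and 3 after NCS. Over all genes 22.1% were higher and 23.6% lower untreated, and 22.9% and 23.6% after NCS.

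ATF4 is a stress factor that induces genes of amino acid supply. Of 18 genes tested, Atf4 itself and 17 of its targets, 14 were higher and 2 lower in untreated 3KR MEFs (median 0.24) and 16 higher and 1 lower after NCS (median 0.29), against 22.1% and 22.9% of all genes that were higher. With NCS 2 rose and 7 fell in WT (median -0.08), and 4 rose and 7 fell in 3KR MEFs (median -0.04). Trib3, a pseudokinase induced by ATF4, fell in WT (log2 fold change -0.91, edgeR FDR = 1.65e-11) and in 3KR MEFs (-0.86, edgeR FDR = 8.46e-12), while Ddit4, an inhibitor of mTORC1 that p53 also induces, rose by 0.76 (edgeR FDR = 5.17e-14) and 0.56 (edgeR FDR = 4.61e-12). Of 10 heat shock genes 2 rose and 2 fell in WT and 5 rose and 1 fell in 3KR MEFs, and between genotypes 7 were lower and 2 higher untreated and 5 lower and 4 higher after NCS. Of 10 listed p53 targets that act on redox 9 were tested. With NCS 1 of these rose and 3 fell in WT, and 2 rose and 1 fell in 3KR MEFs. Between genotypes 1 was higher and 3 lower untreated, and 2 higher and 3 lower after NCS. For comparison, NCS raised 14.3% and lowered 12.4% of all genes in WT, and raised 15.8% and lowered 15.0% in 3KR MEFs. Between genotypes the shares of all genes were 22.1% higher and 23.6% lower untreated, and 22.9% and 23.6% after NCS.

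**Figure D4:**
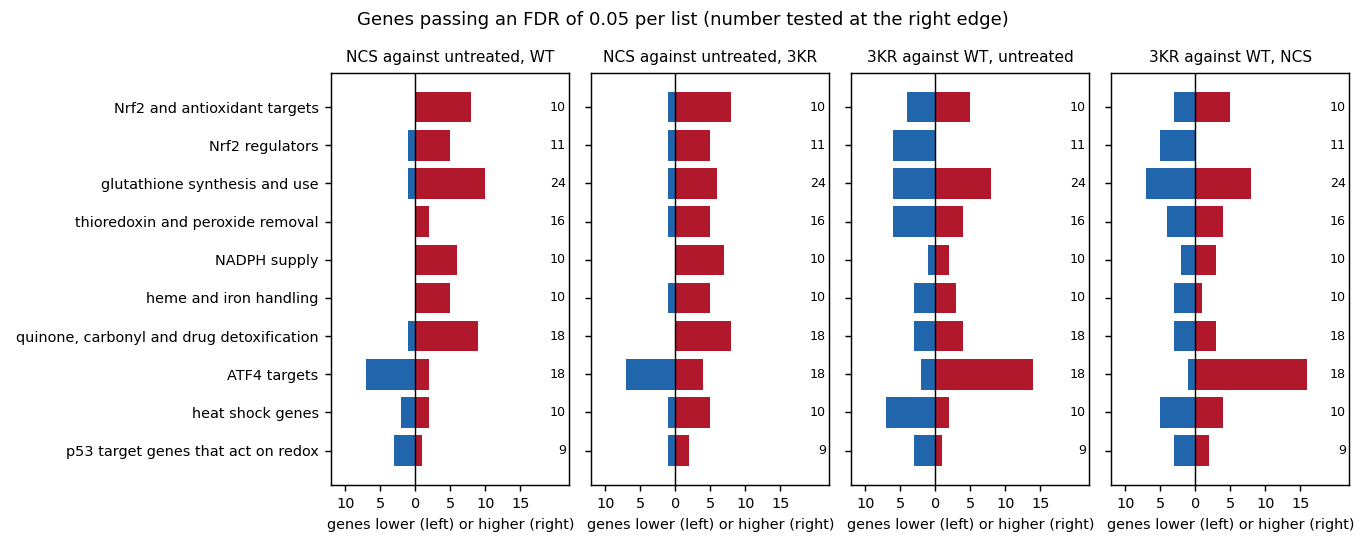
Number of genes per list that passed an edgeR FDR of 0.05 (x axis, lower to the left in blue and higher to the right in red) in 4 comparisons (panels), with the number tested at the right edge. The 10 genes (top row) rise with NCS for 8 genes in each genotype, and the ATF4 list is higher in 3KR MEFs for 14 of 18 genes untreated and 16 of 18 after NCS.

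The profiles most like those of 4 of the 10 genes over the 12 samples were sought among 11757 genes, by the root mean square of the difference in centred log2 CPM. Closest to Nqo1 was Gss (0.0569), followed by Ttc9 (0.0683) and Mgmt (0.0745). Nfe2l2 was most like Hinfp (0.0370), March5 (0.0382) and Abtb1 (0.0383). Hmox1 was nearest to Carhsp1 (0.0695), Dcaf4 (0.0769) and Pcx (0.0790), and Slc7a11 to Entpd4b (0.0483), Tmem64 (0.0498) and Galnt10 (0.0507). These distances are descriptions over samples that share their groups and libraries.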

How the data were processed

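RNA-seq was done on 12 samples, 3 for each of 4 groups, from poly(A) libraries made with a stranded kit. The authors deposited raw counts of reads per Ensembl gene for each sample, neither normalized nor filtered. The submitters' processing notes name mm9, TopHat, HTSeq and DESeq, and whether counting used strand is not given in the sources used here. Groups and replicate numbers came from the sample titles. Symbols and exon lengths were read by identifier from GENCODE M21 (GRCm38), which held 32919 of the 37991 identifiers and lacked 5072. Since its models differ from mm9, no gene coordinates are given other than those of the promoter matches, which come from RefSeq windows on GRCm38.p6, and levels per kilobase are approximate.

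Counts were tested with the quasi-likelihood test of edgeR 4.0.16 in R 4.3.3 (filterByExpr, TMM, 4 group coefficients, all 12 samples). The p-values were two-sided and adjusted by Benjamini-Hochberg over the 15327 tested genes to an FDR, with 0.05 as the threshold. Normalized counts are counts divided by DESeq2 1.42.0 size factors. A count of 3, or 0.0663 to 0.0904 CPM at depths of 33203757 to 45279321, was the floor, which covers counting error only. The steps were tested on simulated data with the same biological coefficient of variation for all genes. The simulation held no pairing and no replicate that stands apart. It therefore does not cover results that depend on these.

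The 10 genes and the lists were chosen with earlier results of these data known. The lists held 127 genes in 9 pathway lists, of which 126 were found by symbol, and 7 marker lists. The gene not found was Tp53inp1 of the p53 list. It was listed under this spelling and not under the mouse symbol Trp53inp1, and was not tested. From each pathway list the called genes with the 2 lowest p-values per direction and comparison could be named, as could Cdkn1a, Mdm2, E2f1, Xist and Ddx3y, and for profile likeness the 3 nearest genes to each of 4 members among genes of mean log2 CPM of at least 1. Fn1, Pdgfra, Des, Ckm and Cd163, and the NCS values of Maff in WT and Sqstm1 in 3KR MEFs, fall outside this rule and were chosen after their values were seen. The TGAGNNNGC motif was added after the first search.

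Same-numbered untreated and NCS samples had deviations from their group means that correlated at 0.267, 0.234 and 0.468 in WT MEFs over 9602 genes. A pairing of WT numbers read from these values rests on replicate 3: without it, the differences of replicates 1 and 2 correlated at 0.0214. The main test did not use this pairing, which entered only as the replicate block among the alternatives. In 3KR MEFs the correlations were 0.00102, 0.0502 and 0.00241. Alternatives were DESeq2 size factors, the DESeq2 Wald test, other filters, the replicate block, the 6 samples compared, each sample left out, and WT replicate 3 left out of both treatments. In the comparisons of genotypes the replicate block joined WT and 3KR samples of the same number. Deviations of such samples within a treatment correlated at -0.0305 to 0.0234, so no pairing across genotypes is shown.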

Additional observations from a re-analysis of the deposited data

Results flagged for a closer look

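Hmox1 was flagged because its response to NCS differed between the genotypes, by -0.22 on the log2 scale (3KR minus WT, edgeR FDR = 0.00563), with a rise of 72.7% in WT and 48.3% in 3KR MEFs. Txnrd1 was flagged for the same reason in the other direction, with a difference of 0.24 (edgeR FDR = 0.000407) and rises of 43.7% and 69.4%. Slc7a11 was flagged because all 3 NCS samples lay above the untreated samples in WT and all 3 lay below them in 3KR MEFs. Its difference of -0.20 did not pass the test (edgeR FDR = 0.0723), whereas with the replicate number as a block it did (edgeR FDR = 0.0124).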

How the results depend on the processing

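The log2 fold changes of the 10 genes were computed under 18 or 19 alternatives per comparison, 940 values in all, and 917 kept their direction and their side of the threshold, 10 lost the call, 13 gained it and 0 reversed. The number of the 10 genes called was 9 in every alternative for untreated genotypes, 7 to 8 for NCS-treated genotypes, 8 to 9 for NCS in WT and 8 to 10 for NCS in 3KR MEFs, and leaving out 1 sample gave 9 to 9, 7 to 8, 8 to 8 and 8 to 10. For the difference of the responses it was 2 to 3 when 1 sample was left out, 4 with the replicate block and 5 without WT replicate 3 in both treatments. Over all genes that difference passed for 572 genes, for 1379 with the replicate block and for 1842 without WT replicate 3 in both treatments, and for 345 (without untreated 3KR replicate 3) to 1159 (without untreated WT replicate 3) with 1 sample left out. Further single samples that moved it by more than 1.5 times were NCS-treated 3KR replicate 1 (346) and 3 (374), untreated 3KR replicate 1 (357) and NCS-treated WT replicate 1 (361). Nqo1 passed for the difference also without untreated WT replicate 3 (0.24, edgeR FDR = 0.00782), and Slc7a11 also without a filter on low counts (edgeR FDR = 0.0457). Slc7a11 fell with NCS in 3KR MEFs with the 6 samples alone (edgeR FDR = 0.0111), without untreated 3KR replicate 2 (0.0380), without untreated WT replicate 3 (0.0482) and without WT replicate 3 in both treatments (0.0122). In 3KR MEFs the numbers were not shown to pair samples, 2 of 6 correlating best with their own number against 5 of 6 in WT, and the replicate block there called all 10 genes, Slc7a11 at -0.10 (edgeR FDR = 0.0277). The block changed no other call of the 10 genes beyond those given, and the cause of the changes was not tested. Scaling by TMM left 40 of 40 group means of normalized counts within 1 SD, and scaling by library total 30 of 40. At these depths the counting error of a value of the 10 genes was at most 3.53%.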
